A study of Caenorhabditis elegans with 2 samples.

Results

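The 5 genes described here are ego-1, puf-9, ifet-1, egg-5 and lab-2 of Caenorhabditis elegans, listed as germline or egg genes and chosen on the peaks of these same data, out of 19973 protein-coding genes on the 6 chromosomes of the lists. Every interval with its summit within 1000 bp of an annotated start of one of them, or inside the gene, was taken from 4 lists on build ce11. The pooled list gave 20 such intervals of 30000, the list of replicate 5 gave 19 of 30000 and the list of replicate 6 gave 17 of 30000. The list after the irreproducible discovery rate procedure (IDR, a method built on how ranks repeat between replicates) gave 5 of 360. These 360 were the pooled intervals of highest signal. Of them 40% fell in the best 360 intervals of both replicates. A place on the IDR list therefore does not mean similar ranks in both. The assay was chromatin immunoprecipitation with sequencing (ChIP-seq) of F57C9.4 fused at its C terminus to GFP and FLAG, precipitated through GFP. All worms were strain OP550, with unc-119(tm4063) III and the transgene wgIs550, as whole young adults of pooled sexes 66 h after synchronisation as starved L1 larvae. There was 1 group with 2 biological replicates, numbered 5 and 6, so the design holds no contrast between conditions. The labels name a possible control experiment, which was not analysed here. Binding in the germ line cannot be told apart from binding in other tissues in whole worms, and the lists hold no expression values with which to check a tissue.

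EGO-1 is an RNA-directed RNA polymerase that copies transcripts into small interfering RNAs in the germ line. PUF-9 belongs to the Pumilio family, whose members bind messages and repress them; several of its relatives act in germ cells, whereas PUF-9 itself is best known from the soma, where it acts on hbl-1. IFET-1 is the worm relative of the eIF4E transporter 4E-T, and represses translation of stored messages in P granules, the germ granules of the worm. EGG-5 is a pseudophosphatase of the oocyte cortex that acts together with EGG-4 to hold the kinase MBK-2 in check until the egg is activated. LAB-2 shares its symbol with LAB-1, a protein of meiotic chromosomes. Many worm messages are trans-spliced, that is, their first bases are replaced by a spliced leader RNA, so an annotated start can lie downstream of where transcription begins.

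The reference sequence within 100 bp of the IDR summit is shown for puf-9, ifet-1 and lab-2, the members on chromosomes X and III, because these bases surround their peaks. The windows of the other 2 genes were searched in the same way and are not printed. The strongest summit of each replicate also falls in its window, except that of replicate 5 at puf-9, 126 bp from the IDR summit. Each runs 5′ to 3′ on the forward strand of WBcel235 (ce11), as held by RefSeq. Capitals mark the matches to any of 6 motifs searched on both strands, namely TATAAA (the TATA box), CCAAT (the CCAAT box), CACGTG (an E-box), TGACG (a core of CREB sites), GAGAGA (a purine repeat) and GTTCGANNC (the B box of tRNA gene promoters). The windows are X:5841147-5841347, III:4475536-4475736 and III:7329409-7329609.
puf-9: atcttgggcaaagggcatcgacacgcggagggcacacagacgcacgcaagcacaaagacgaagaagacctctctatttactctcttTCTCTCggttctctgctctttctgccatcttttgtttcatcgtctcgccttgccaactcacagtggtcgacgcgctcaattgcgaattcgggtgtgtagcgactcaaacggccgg
ifet-1: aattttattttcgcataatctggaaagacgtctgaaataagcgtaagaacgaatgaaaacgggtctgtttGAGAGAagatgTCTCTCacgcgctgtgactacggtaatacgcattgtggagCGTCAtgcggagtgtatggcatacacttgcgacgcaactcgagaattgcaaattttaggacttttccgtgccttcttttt
lab-2: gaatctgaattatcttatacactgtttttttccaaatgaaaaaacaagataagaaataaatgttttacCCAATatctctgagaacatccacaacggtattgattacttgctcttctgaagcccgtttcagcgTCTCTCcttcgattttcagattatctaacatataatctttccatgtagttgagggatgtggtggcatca
The letters GAGAGA or their reverse complement were found 1 time beside puf-9, 2 times beside ifet-1, 1 time beside lab-2 and 0 times in the windows not printed. In the puf-9 window the match began 14 bp before the summit in forward coordinates. Those beside ifet-1 began 30 and 19 bp before it, on opposite strands. The ifet-1 window also held TGACG on the reverse strand, 21 bp after the summit, and the lab-2 window held CCAAT 32 bp before its summit. None of these matches overlapped another.

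Counted over the windows of all 5 genes, GAGAGA was present in 3 of 5, against 19.7% of the 360 IDR windows and 13.9% of the 29640 windows at other pooled summits. TGACG was present in 1 of 5 (25.6% of IDR and 24.3% of other windows) and CCAAT in 1 of 5 (35.3% and 37.2%). The other motifs were in 0 of 5. The TATA box was in 19.7% of IDR and 15.1% of other windows, the E-box in 7.78% and 4.89%, and the B box in 10.6% and 2.45%. With 5 windows such counts describe these sites only, and nothing follows from them about a factor. The share of G and C within 50 bp of the summit ranged from 31.7% at egg-5, through 39.6% at ego-1 and at lab-2 and 45.5% at puf-9, to 49.5% at ifet-1. The median over all IDR summits was 45.5% (quartiles 39.6% and 52.5%), and over other pooled summits 41.6%. All 172 overlapping 30-base words of each of the 5 windows occurred only at that place on the 6 chromosomes, including at egg-5, whose window overlaps a gene of the repeated SL2 RNA family.

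All 5 genes had exactly 1 IDR peak each. Under the same rule 348 of 19973 protein-coding genes had one (1.74%), but the members were chosen for having a peak, so their count is not a result. Their peaks spanned most of the list in strength. The signal value of the authors' peak caller, by which all ranks are given, was 217 at egg-5 (rank 4 of 360), 129 at ego-1 (rank 30), 93.3 at lab-2 (rank 113), 86.2 at puf-9 (rank 149) and 73.3 at ifet-1 (rank 257). The median of the IDR list was 81.5, so the ifet-1 peak was in its weaker part and the others in its stronger part. The last peak kept by IDR had a signal of 66.8 (rank 360) and the first pooled interval left out had 66.7 (rank 361). The nearest interval of these genes below that limit was a further one at egg-5, with 62.9 (rank 447). The authors' q-values for the 5 pooled intervals ran from 0.00493 at egg-5 and ego-1 to 0.0236 at puf-9. Beyond the window and the gene, the next pooled summits by distance from the start were 1345 bp away at ifet-1 (signal 35.9), 1633 bp at lab-2 (40.0), 1804 bp at ego-1 (43.0), 2069 bp at egg-5 (25.5) and 5862 bp at puf-9 (35.2).

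**Figure D1:**
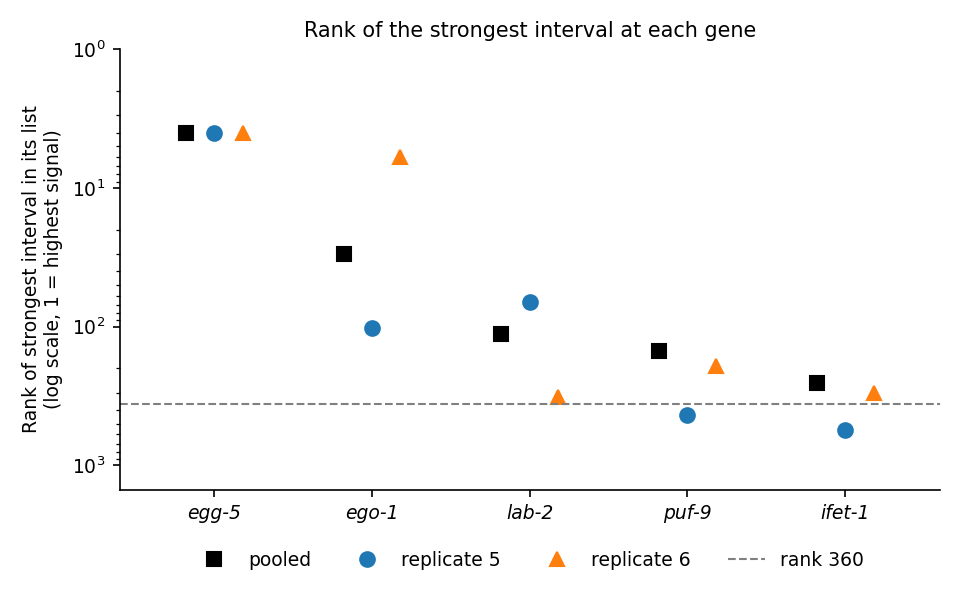
Rank of the strongest interval at each gene (vertical axis, log scale, 1 at the top) in the pooled list and in the lists of replicates 5 and 6; the dashed line marks rank 360. At egg-5 all 3 ranks are 4, at ego-1 and lab-2 the replicates lie far apart on opposite sides of the pooled rank, and at puf-9 and ifet-1 replicate 5 lies below the line.

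At ego-1 (WBGene00001214, I:7650341-7656338, reverse strand) the strongest interval lay upstream of the gene in every list, and replicate 6 ranked it far higher than replicate 5. The IDR peak (I:7656645-7656745) had its summit at I:7656719, 381 bp upstream of the annotated start and 447 bp from the first coding base, between annotated genes. Its rank was 103 in replicate 5, with a signal of 60.9 or 3.29 times the median of that list. In replicate 6 its rank was 6, with a signal of 81.7 or 6.63 times the median. The signal scale differed between lists, so only ranks and multiples of a list's own median are set side by side. By signal the larger rank was 17.2 times the smaller, the widest such gap among the 5 genes. Ordered by the authors' q-value instead, with tied intervals sharing the best rank, ego-1 was tied at rank 1 in both replicates. Such ties cannot show whether a gap remains.

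The summits of the strongest ego-1 interval were 86 bp apart in the replicates, at I:7656712 in replicate 5 and at I:7656798 in replicate 6. In all 4 lists the nearest annotated start was that of the piRNA gene 21ur-14981, at 245 bp from the IDR summit, 238 bp in replicate 5 and 324 bp in replicate 6. piRNA genes encode short germline RNAs that guide PRG-1. The nearest protein-coding start was that of ego-1 itself, and the next was that of F26A3.4 at 1572 bp, on the same strand and with its 3′ end towards the summit. A further pooled interval overlapped the peak, with its summit 583 bp upstream of the start (signal 31.9, rank 7573).

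Inside ego-1 the intervals were weak. The pooled list held 3, of ranks 14878 to 24640, replicate 5 held 4, of ranks 17748 to 19839, and replicate 6 held 2, of ranks 24558 and 27247. Their signals lay between 0.765 and 1.00 times the median of their list. Of these 9 summits 7 fell in coding exons. A pooled summit at the last base of ego-1, in its 3′ UTR, lay nearer to the start of rrf-1, a paralogous polymerase gene next to ego-1, at 564 bp against 5997 bp. No ego-1 interval other than the upstream peak passed IDR.

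At puf-9 (WBGene00004245, X:5841592-5845987, forward strand) the strongest interval was also upstream in every list. The IDR peak (X:5841045-5841448) had its summit at X:5841247, 345 bp upstream of the annotated start and 370 bp from the first coding base. The rank was 433 in replicate 5 (signal 43.3, 2.34 times the list median) and 193 in replicate 6 (signal 36.8, 2.99 times). By signal, replicate 5 placed it outside its own 360 best intervals and replicate 6 inside. By q-value it ranked 460 in replicate 5 and 958 in replicate 6, outside in both and in the opposite order. The summit of replicate 6 coincided with the IDR summit, and that of replicate 5 (X:5841373) was 126 bp nearer to puf-9, the largest displacement between replicates among the 5 genes.

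The puf-9 peak covered a pair of overlapping non-coding RNA genes of no further annotated class, W06B11.9 on the forward and W06B11.7 on the reverse strand. The IDR summit lay inside both, 62 bp from the start of W06B11.9 and 103 bp from that of W06B11.7. In replicate 5 the nearest start was instead that of W06B11.7, at 23 bp, with W06B11.9 at 188 bp and puf-9 at 219 bp. Which of the pair was nearest thus differed between the replicates. The upstream protein-coding neighbour dct-11 starts 1469 bp from the IDR summit on the opposite strand, with 1814 bp between the starts of dct-11 and puf-9.

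Within the puf-9 gene body there were 5 pooled intervals, 4 in replicate 5 and 5 in replicate 6. The strongest pooled one (X:5842395, in a coding exon 803 bp downstream of the start) had a signal of 42.8, or 1.66 times the list median, and rank 2340. Its counterparts ranked 7910 in replicate 5, with the summit 794 bp from the start, and 3174 in replicate 6, at 803 bp. A coding-exon summit 2538 bp from the start recurred at the same base in the pooled list and in replicate 5. Near the 3′ end, summits in the 3′ UTR were closest to the non-coding gene W06B11.8, at 1695 to 2155 bp. The strongest of these, in replicate 5, ranked 3102.

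At ifet-1 (WBGene00004132, III:4471411-4475150, reverse strand) the peak stood between ifet-1 and the ribosomal protein gene rps-1, and was nearer to rps-1. These genes are transcribed away from each other, with 768 bp between their starts. The IDR peak (III:4475434-4475837) had its summit at III:4475636, 486 bp upstream of ifet-1 and 282 bp upstream of rps-1. The rank was 555 in replicate 5 (signal 41.2, 2.22 times the list median) and 301 in replicate 6 (signal 32.9, 2.67 times). As at puf-9, replicate 5 left it outside its 360 best intervals by signal, and by q-value the order turned, with rank 383 in replicate 5 and 864 in replicate 6. The replicate summits were 44 bp apart, and rps-1 was the nearest protein-coding gene in each, at 305 bp against 463 bp for ifet-1 in replicate 5 and 261 bp against 507 bp in replicate 6.

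The ifet-1 summit also fell inside 2 overlapping non-coding RNA genes on opposite strands, F56F3.11 (start at 21 bp) and F56F3.10 (start at 60 bp). In replicate 5 the order was reversed, with F56F3.10 at 37 bp and F56F3.11 at 44 bp, and in replicate 6 the summit was the annotated first base of F56F3.11. Inside the ifet-1 gene body the strongest pooled interval was in a coding exon 1717 bp from the start (signal 40.3, rank 3077), found at 1736 bp in replicate 5 (rank 4792) and at 1729 bp in replicate 6 (rank 14671). Replicate 6 had its best interval of the body elsewhere, in the 3′ UTR (III:4471926, rank 2497), where the nearest start was that of the tRNA gene WBGene00014402 at 968 bp.

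A separate IDR peak lay 349 bp beyond the 3′ end of ifet-1, outside the rule used here. Its summit (III:4471062, signal 95.1, pooled rank 105) was 104 bp from WBGene00014402 and 4088 bp from the ifet-1 start. It was stronger in the pooled list than the peak counted for ifet-1. Its rank was 61 in replicate 5 and 715 in replicate 6.

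At egg-5 (WBGene00020035, I:4168984-4171589, reverse strand) the peak was the strongest of the 5 genes and, by signal, the most alike in rank between replicates, but also the farthest from its start. The IDR peak (I:4172251-4172416, 166 bp wide) ranked 4 in the pooled list and 4 in each replicate, with a signal of 139 in replicate 5 and 87.2 in replicate 6. These were 8.41, 7.48 and 7.07 times the median of the pooled list, replicate 5 and replicate 6. Its summit at I:4172351 was 762 bp upstream of the annotated start of egg-5, and the replicate summits were 15 bp apart. The start of the non-coding RNA gene R12E2.18 was 45 bp away and that of sls-2.4 was 145 bp away. sls-2.4 encodes a spliced leader of the SL2 class, the kind added to messages from downstream genes of operons. R12E2.18 and sls-2.4 overlap on opposite strands, and the summit lay between the pair and the 3′ end of R12E2.11, whose start was 1273 bp away.

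No interval of any list had its summit inside egg-5. Besides the peak there was only 1 more, in the pooled list, overlapping it (summit 961 bp from the egg-5 start in the 3′ UTR of R12E2.11, rank 447), and none in either replicate list. The link to egg-5 rests on the distance to its start alone. With a window of 500 bp egg-5 had no IDR summit, and the other 4 genes kept theirs.

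At lab-2 (WBGene00018954, III:7324940-7329607, reverse strand) the summit lay inside the gene, and the nearest annotated start was that of lab-2 itself in every list. The IDR peak (III:7329307-7329710) had its summit at III:7329509, in a coding exon 98 bp downstream of the annotated start, which is also the first coding base. No leader is annotated for this gene. The rank was 66 in replicate 5 (signal 65.8, 3.55 times the list median) and 324 in replicate 6 (signal 32.2, 2.61 times), the opposite order to that at ego-1. By q-value the ranks were 1 and 767, but rank 1 in replicate 5 was a tie at the lowest q-value of that list. Of the other members egg-5 and ego-1 shared it, and the size of the tie over the whole list is not given here. The 2 gaps are therefore not comparable. The replicate summits were 26 bp apart, 120 and 94 bp downstream of the start. The nearest non-coding start, of the snoRNA gene F56C9.12, was 8383 bp away, and the next protein-coding start, of F56C9.10, was 5620 bp away.

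Weaker intervals flanked the lab-2 peak. In the pooled list a summit 114 bp upstream of the start, in the 3′ UTR of F56C9.10, had a signal of 37.1 (rank 4234). Replicate 5 had one 80 bp upstream (rank 2571) and replicate 6 one 165 bp upstream (rank 6191), with another 356 bp downstream (rank 2677). A summit 734 bp upstream in the pooled list and 733 bp upstream in replicate 5 lay in a coding exon of F56C9.10. Replicate 5 alone held 2 intronic intervals in lab-2, of ranks 24426 and 27558.

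**Figure D2:**
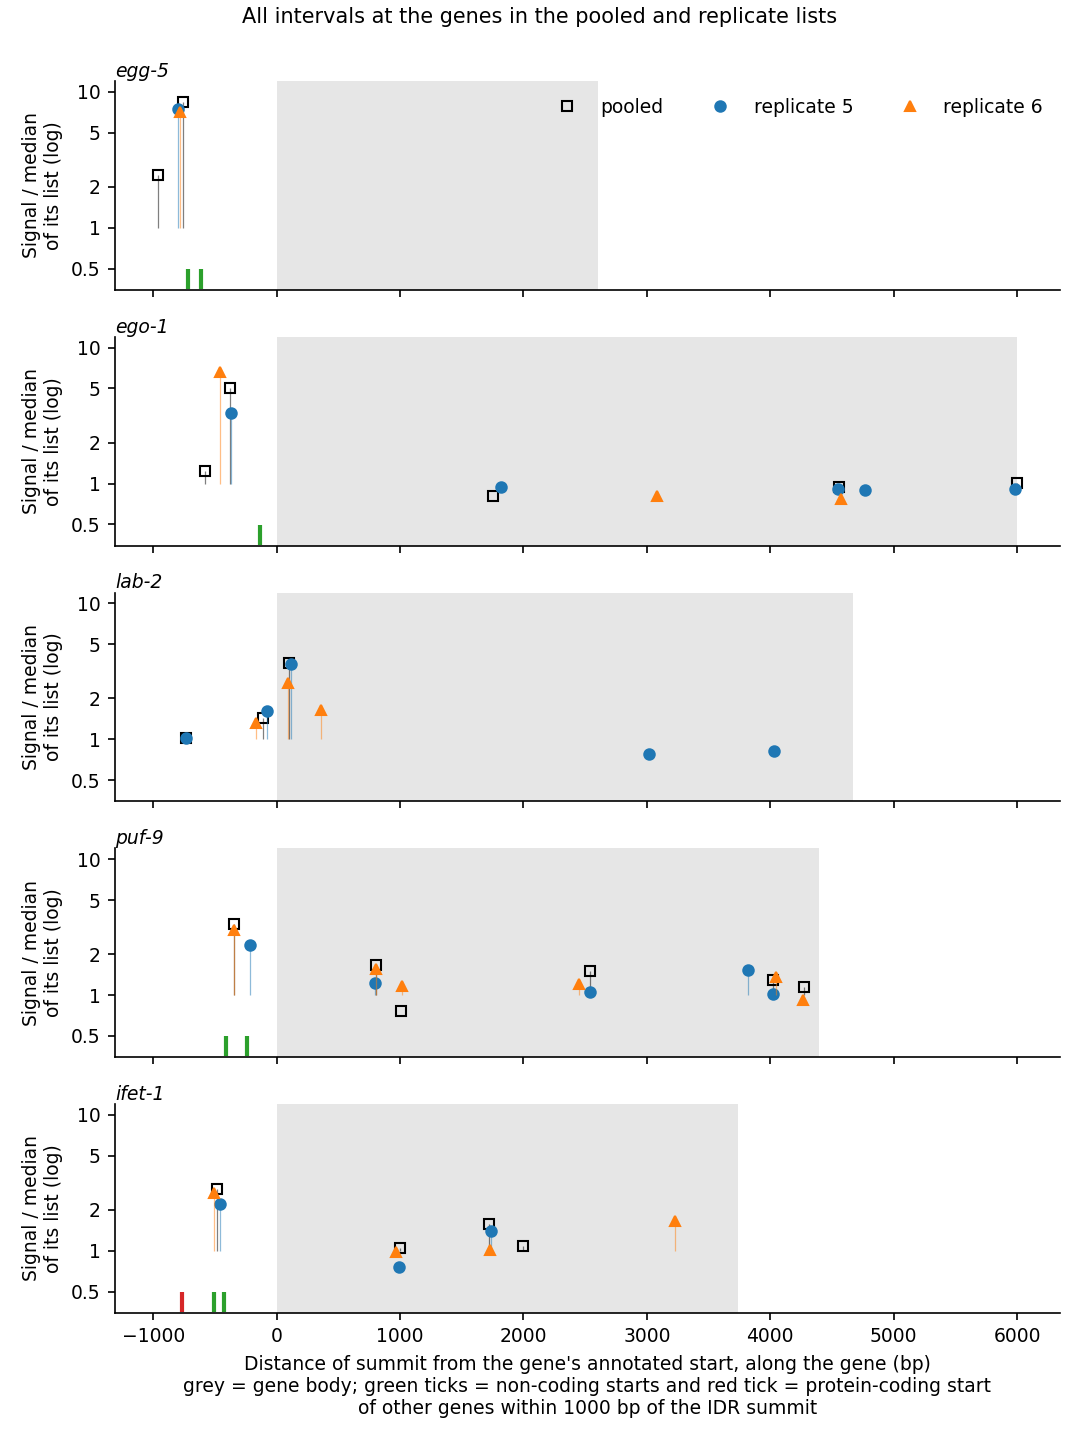
Every interval at each gene by the distance of its summit from the annotated start along the gene (horizontal axis, bp) and its signal as a multiple of the median of its own list (vertical axis, log scale), with squares for the pooled list, circles for replicate 5 and triangles for replicate 6; stems run to 1, the list median. The strongest point of each list lies upstream of the start at every gene but lab-2, and just inside the gene at lab-2, while the other intervals inside the genes reach at most 1.66 times the median; the grey box is the gene and ticks mark starts of other genes, green for non-coding and red for protein-coding.

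Seen side by side, the strongest interval at each gene stood above the next one at that gene by unequal amounts. In the pooled list the ratio of signals was 4.04 at ego-1, 3.44 at egg-5, 2.51 at lab-2, 2.01 at puf-9 and 1.82 at ifet-1. In replicate 6 the ego-1 ratio was 8.22, whereas the 3 other genes with a further interval had 1.60 to 1.91. The replicate lists held no further interval at egg-5. In replicate 5 the ratios were 3.49 at ego-1, 2.22 at lab-2, 1.60 at ifet-1 and 1.52 at puf-9.

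For egg-5, ego-1, puf-9 and ifet-1, that is 4 of the 5 genes, a non-coding RNA gene had the start nearest to the IDR summit, and lab-2 was the exception. The same 4 genes gave this answer with the strongest interval of each replicate, while the strongest pooled interval was the IDR peak itself. Among the 289 IDR summits within 1000 bp of a protein-coding start or inside a protein-coding gene, 34.9% had a non-coding start nearest. The share was 39.2% of all 360 IDR summits and 22.5% of the 29640 other pooled summits. Over all 20 pooled intervals of the 5 genes the nearest start was non-coding for 8, coding for 12, and of a pseudogene for 0. The member was the nearest protein-coding gene for 15 of the 20, and for 4 of the 5 IDR peaks, with rps-1 in place of ifet-1. The distance from the members' starts to their IDR summits ran from 98 to 762 bp. For the 348 genes with an IDR summit the median was 459 bp (quartiles 189.5 and 926 bp).

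**Figure D3:**
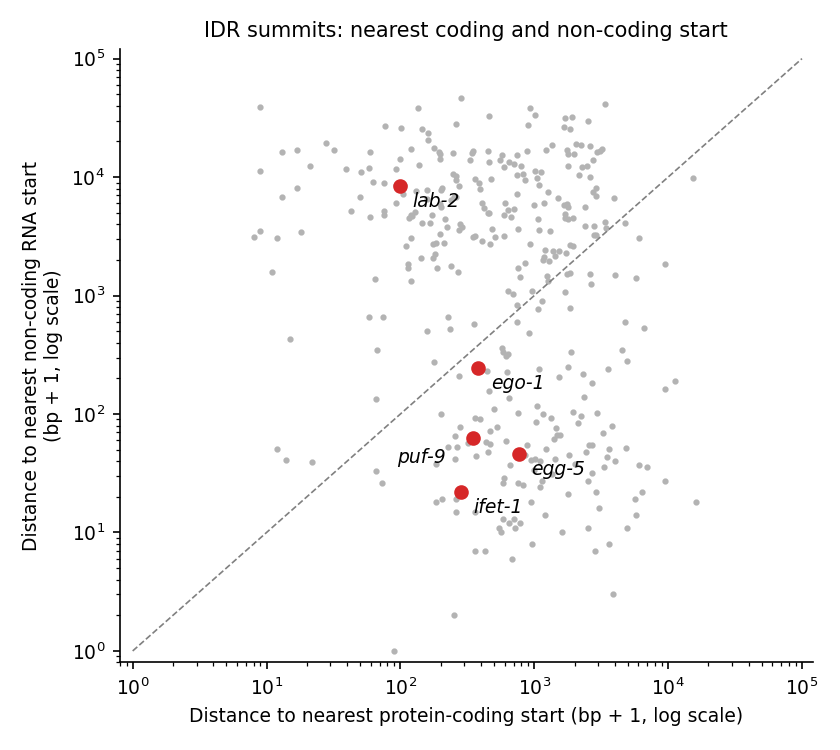
Distance from each of the 360 IDR summits to the nearest protein-coding start (horizontal axis) and to the nearest non-coding RNA start (vertical axis), both in bp plus 1 on log scales; red points are the 5 genes, grey points the other peaks, and the dashed line marks equal distances. lab-2 lies far above the line, and ego-1, puf-9, egg-5 and ifet-1 lie below it at 245, 62, 45 and 21 bp from a non-coding start.

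Between replicates and by signal, replicate 6 placed all 5 genes among its 360 best intervals and replicate 5 placed 3 of them, ego-1, egg-5 and lab-2. Ordered by q-value, with tied intervals sharing the best rank, the same 3 genes were tied at rank 1 in replicate 5. In replicate 6 only 2 were within rank 360, ego-1 and egg-5, also tied at rank 1. Which replicate holds more of the genes thus depends on the order used. Under the same rule, the 360 best intervals of replicate 5 marked 1.67% of protein-coding genes and those of replicate 6 marked 1.71%. All 5 strongest replicate intervals held the IDR summit in both replicates. Of all 360 IDR peaks, 71.4% were held by one of the best 360 intervals of replicate 5, 59.7% by one of replicate 6, and 40% by both. By signal the larger rank exceeded the smaller by 17.2 times at ego-1, 4.91 at lab-2, 2.24 at puf-9, 1.84 at ifet-1 and 1 at egg-5, and by a median of 3.93 over the 356 IDR peaks found in both lists. With 2 replicates and no read counts, no error can be attached to these ranks.

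**Figure D4:**
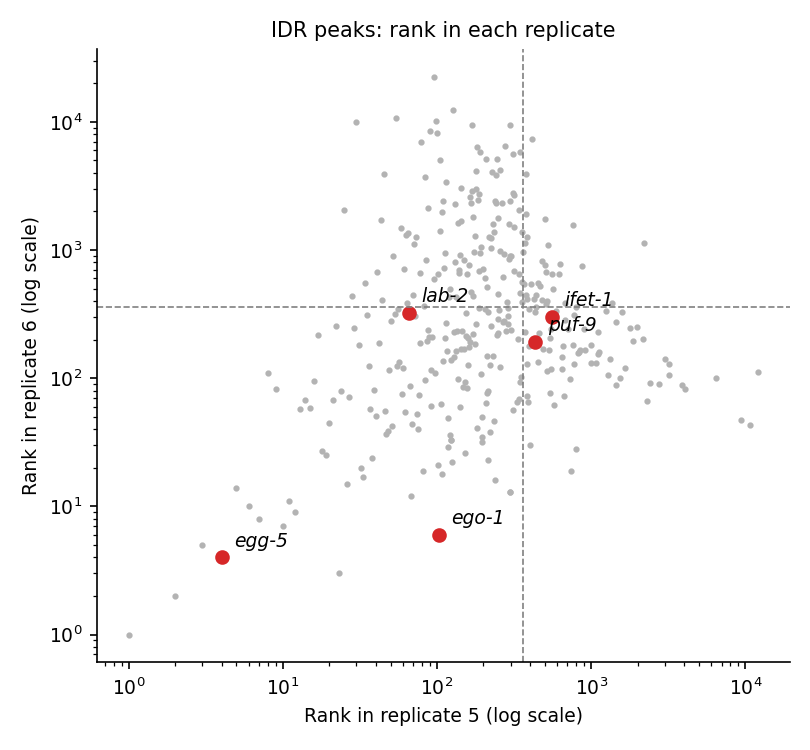
Rank of the IDR peaks in replicate 5 (horizontal axis) and replicate 6 (vertical axis), log scales, for the 356 peaks found in both lists; red points are the 5 genes and dashed lines mark rank 360. egg-5 is near the corner of the best ranks, ego-1 is low on the vertical axis only, and puf-9 and ifet-1 lie just right of the vertical line.

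Peaks with the most similar ranks over the 3 lists before IDR were named by the sum of absolute differences in log2 rank, with the nearest protein-coding start as a label. For ego-1 these were the peak near wwp-1 (pooled rank 35, replicate ranks 108 and 18, sum 1.88) and one with its nearest coding start, of T04C4.3, 2740 bp away (ranks 23, 68 and 12, sum 1.98). For puf-9 they were peaks labelled W08G11.3 (sum 0.41, with that start 2520 bp away) and ufd-3 (0.54, 159 bp). For ifet-1 they were K08F11.1 (0.41, 616 bp) and nhr-105 (0.57, 1525 bp). For lab-2 they were pcyt-2.1 (0.41, 361 bp) and mom-1 (0.52, 3384 bp). For egg-5 they were rpl-3 (1.15) and pxn-1 (2.13, with the pxn-1 start 5672 bp away).

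Relatives and partners of the 5 genes were examined through 5 lists with 102 matched genes. Only htp-3, a meiotic chromosome axis gene, had an IDR summit among the 97 that are not members (1.03%, against 1.74% of all protein-coding genes). That summit (pooled rank 350, signal 67.3) lay 2171 bp from the htp-3 start and nearer to F57C9.4, the tagged gene itself, at 892 bp. The comparison depended on the rule. With interval overlap in place of the summit, 8 of the 102 list genes were marked, members included, and 2.21% of all protein-coding genes. Without gene bodies just the 5 members were marked, and 1.37% of all protein-coding genes. Under the main rule and counted with the members, 6 of 102 genes had an IDR summit, which follows from how the members were chosen. By list this was 1 of 12 RNA-directed RNA polymerase and small RNA genes (ego-1) and 1 of 18 PUF genes and partners (puf-9). It was also 1 of 30 translational repression and P granule genes (ifet-1) and 1 of 19 oocyte and eggshell genes (egg-5). In the list for meiotic chromosomes it was 2 of 24 (lab-2 and htp-3), although no role of lab-2 is given here beyond its symbol.

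After htp-3, the best pooled ranks among the list genes that are not members were 753 at syp-4, a gene of the synaptonemal complex, 939 at mex-3, an RNA-binding repressor of early embryos, and 1082 at nos-3, a relative of Nanos. All lay outside the first 360, and the syp-4 summit was nearer to the start of H27M09.5 (247 bp) than to that of syp-4 (305 bp). The rule leaves out summits just past the end of a gene. An IDR summit at IV:7962173 (pooled rank 80) lay just past csr-1, which ends at IV:7962157, and 330 bp from the start of frpr-10. Another, at I:10085862 (pooled rank 189), lay just past mut-16, which ends at I:10085765. Such peaks were not counted for the lists. Among polymerase genes rrf-1, next to ego-1, had a best pooled rank of 1662 (signal 46.1) against 30 for ego-1, while rrf-2 ranked 5214 and rrf-3 ranked 15923. Of the 9 other matched Pumilio-family genes, 6 had a pooled interval, with best ranks from 6506 at puf-3 to 23349 at puf-5, and puf-6, puf-7 and fbf-2 had none. egg-4, the partner of egg-5, and lab-1 had no pooled interval either. mbk-2, the kinase that EGG-4 and EGG-5 hold in check, ranked 1239. cgh-1, a helicase gene of P granules, ranked 8094. Of the 102 genes 86 had some pooled interval (84.3%), as did 64.0% of all protein-coding genes. The 86 include the 5 members, which were chosen for a peak. The pooled list also holds background, with q-values up to 0.906, and gene length was not taken into account. No enrichment follows from these shares.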

How the data were processed

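The deposited files are narrowPeak lists, per the text deposited with each sample. The authors made the lists before IDR from the alignments of 1 replicate, or of both pooled, together with a further file of unstated kind, and the IDR list from these lists. For aligner, peak caller and versions: not given in the sources used here. In the lists, the deposited signal value is the authors' own score per peak on a scale that differs between lists (list medians 25.8 pooled, 18.5 for replicate 5, 12.3 for replicate 6), so it served to rank intervals within a list. The deposited −log10 q-value served as an alternative order. Another deposited value, the summit offset, gave the summit position. Lists before IDR stop at 30000 intervals with q-values up to 0.906, and the deposited names call them peaks and background together. Read depth is unknown, so values carry no counting error.

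Coordinates are ce11, counted from 1. Genes came from Ensembl release 115 on WBcel235 (identical to ce11), with 46890 on the 6 chromosomes, and every annotated transcript start was used. Genome sequence was RefSeq's copy of WBcel235. Python 3.11.15, numpy 2.4.6, pandas 2.3.3 and matplotlib 3.10.9 were used, and the search rule was checked on summits placed at known genes. Distances ignore strand unless a side is given. No test was run, because there is 1 group and the genes were chosen on these lists. The members and gene lists were chosen with earlier results of these data known. Of 105 listed symbols 102 matched (not cde-1, puf-4 and rde-3). Named genes were the 5 members, the neighbours of their peaks, list genes with an IDR summit and the 2 peaks nearest in rank pattern. The relatives given by rank, and the IDR peaks just beyond ifet-1, csr-1 and mut-16, were named after their values were seen. Alternatives covered the window, gene body, interval overlap, start definition, single replicates, stronger peaks, the order by q-value and the ce10 lists.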

Additional observations from a re-analysis of the deposited data

How the results depend on the processing

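The 5 genes kept their IDR summit with a window of 2000 bp, without gene bodies, with interval overlap in place of the summit, and with the 5′ end of the gene as the only start. Taking 1 replicate's own 360 best intervals as the list gave 3 to 5 of the genes and 3 to 5 summits, with puf-9 and ifet-1 lost without replicate 6. Keeping just those 144 IDR peaks that both replicates rank within 360 likewise left 3 genes, ego-1, egg-5 and lab-2, with 3 summits, 3 genes of the lists and 141 protein-coding genes in all. The stronger 180 IDR peaks lost ifet-1 and marked 168 protein-coding genes. In these last settings the fewer peaks account for the lower counts over all genes. Of 44 recomputed ranks, 36 moved by no more than the spread between replicates, but most of these could hardly move. In 10 the interval holding the IDR summit was taken, and in 10 the interval overlapping the IDR peak, and both gave the same intervals again. A further 9 were ce10 intervals matched on their signal. Ordering by q-value, where ties share the best rank, left 7 ranks within the spread and moved 8. There egg-5 ranked 1 in all 3 lists and ego-1 1 in replicate 5 (103 by signal). Both replicate ranks of egg-5 were 4 by signal, so any shift at that gene counted as moved. puf-9 ranked 584 in the pooled list, and puf-9, ifet-1 and lab-2 ranked 958, 864 and 767 in replicate 6 against 460, 383 and 1 in replicate 5, which turned the order of the replicates at puf-9 and ifet-1. All 5 IDR peaks had a ce10 counterpart on the same chromosome with signal within 0.1%. Of 15 ranks 9 could be matched in a ce10 list in that way.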
